A study of Drosophila melanogaster with 7 samples.

Results

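RNA polymerase II carries a long C-terminal tail of repeats, and phosphorylation of that tail changes as the enzyme moves along a gene. The serine phosphorylation called Ser5P marks polymerase at and just after the start of transcription, and the one called Ser2P builds up during productive elongation. The histone mark H3K4me3, a trimethylated lysine of histone H3, marks the first nucleosomes of active genes. H3K36me3, a trimethylated lysine farther along the same histone tail, is laid down in gene bodies by an enzyme that travels with elongating polymerase. The positions of the Ser5P and Ser2P peaks were examined here relative to each other and to the nearest peaks of these marks. Every Ser5P peak with the midpoint of a Ser2P peak within 5 kb of its own midpoint was taken, and its partner was the Ser2P peak with the nearest midpoint. These were 2675 of the 3732 Ser5P peaks, or 71.7% (95% exact interval 70.2 to 73.1, range over the 5 chromosome arms 68.6 to 74.5).

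The tissue was the wing imaginal disc of Drosophila melanogaster, an epithelial sac of the larva that becomes the adult wing and part of the thorax, dissected at the third instar from flies kept on ordinary medium. No genotype, strain, sex or treatment is named in the labels, and all libraries share the same description apart from the antibody. Chromatin immunoprecipitation followed by sequencing (ChIP-seq) gave 1 library per target, and the lists used were those of Ser2P (4828 peaks), Ser5P (3732), H3K4me3 (5868) and H3K36me3 (5760). Positions follow the dm3 build, no gene annotation of that build was used here, and so no region is assigned to a gene, exon or intron.

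With 1 library per target no difference could be tested over replicates, and the depth of the libraries is unknown because the lists hold positions only. Intervals below are exact (Clopper-Pearson for shares, order statistics for medians), cover the counting of peaks only and treat neighbouring peaks as independent. The range over arms is given as the spread within 1 list, and arms are not replicates. A whole tissue was used, so a pair of peaks need not come from the same cells.

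Most Ser5P peaks with a partner had their midpoint within 500 bp of that of the partner, and the rest were spread out to the 5 kb limit. The midpoints of a pair were a median of 280 bp apart (interval 235 to 334.5; quartiles 48 and 1639.5 bp; arms 234.5 bp on 3L to 325 bp on X). In 1143 pairs, or 42.7%, the offset was at most 150 bp, about the length of DNA on 1 nucleosome. Offsets of up to 500 bp made up 56.2% of the pairs, and from there the classes thinned from 222 pairs at 500 to 1000 bp to 63 pairs at 4500 to 5000 bp. The median offset moved with the limit, to 117 bp within 2 kb and 519 bp within 10 kb, and it was 111 bp in pairs that were each other's nearest. Joining peaks of the same list over gaps of up to 500 bp gave 441 bp, and pairing each Ser2P peak with its nearest Ser5P peak gave 613 bp. At the limit itself the last members had offsets of 4987 and 4999.5 bp, and the first Ser5P peaks outside had 5003 and 5017.5 bp.

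The Ser2P and Ser5P peaks of a pair overlapped by at least 1 bp in 1623 pairs (60.7%, 58.8 to 62.5; arms 59.2 to 61.9) and were separated in the other 1052. Overlapping pairs had a median offset of 65 bp and shared a median of 728 bp. Separated pairs had a median offset of 2084 bp, with a median gap of 1234 bp from edge to edge (quartiles 501 and 2343 bp). Whether a pair overlapped depends by construction on its offset and the peak widths. Only 3 separated pairs had an offset within 500 bp, and no overlapping pair had one above 2000 bp. At 500 to 1000 bp both kinds were found, with 102 overlapping and 120 separated pairs.

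Where the forms overlapped, the Ser2P peak was usually the narrower. In overlapping pairs the median width was 780 bp for Ser2P (interval 743 to 820) and 996 bp for Ser5P (961 to 1037), and the Ser5P peak was the wider in 73.3% of them. The shared stretch took up a median of 98.1% of the Ser2P peak and 85.6% of the Ser5P peak. In 638 pairs (39.3%) the Ser2P peak lay wholly inside the Ser5P peak, in 181 (11.2%) the reverse held, and 804 overlapped in part. Separated pairs went the other way, with a median width of 782.5 bp for Ser2P and 559.5 bp for Ser5P. Widths depend on how each list was called, so a width compares these lists and not amounts of polymerase.

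The pairing was not always one to one. The 2675 Ser5P peaks had 2140 different Ser2P partners, of which 1692 served 1 Ser5P peak, 377 served 2 and 71 served 3 or more, up to 5. In 2110 pairs (78.9%) each peak was the nearest of the other. Within 5 kb, 41.3% of the Ser5P peaks had 1 Ser2P midpoint, 31.3% had 2, and 38.6% had Ser2P midpoints on both sides. Of the separated pairs, 299 (28.4%) had a further Ser5P midpoint between the partners.

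**Figure D1:**
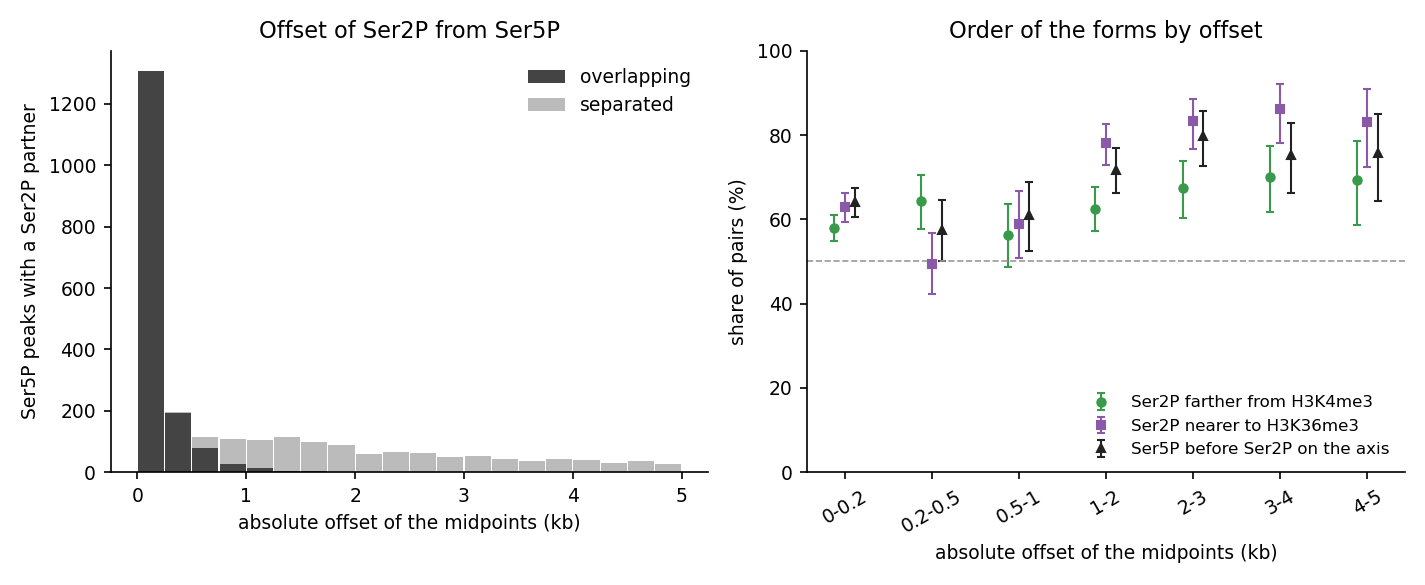
Left, absolute offset between the Ser2P and Ser5P midpoints of the 2675 pairs in 250 bp classes, split into overlapping and separated pairs. Right, by class of offset, the share of pairs with Ser2P farther than Ser5P from H3K4me3, with Ser2P nearer to H3K36me3 and with Ser5P before Ser2P on the axis from H3K4me3 to H3K36me3, with exact 95% intervals and a dashed line at 50%. The H3K36me3 share was 49.5% at 200 to 500 bp and 78.1 to 86.1% in the classes above 1000 bp.

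The first question of order was which form lay farther from the promoter mark. Both forms had an H3K4me3 midpoint within 5 kb in 2168 pairs (81.0% of all), each form being measured to its own nearest one. Ser2P midpoints lay a median of 378 bp from H3K4me3 (interval 353 to 415.5), against 239 bp for Ser5P (217 to 259.5). Ser2P was the farther in 1330 pairs, or 61.3% (59.3 to 63.4; arms 58.3 on 2L to 65.2 on 2R), where 50% would mean no order, and in 3 pairs the distances were equal. Over the 5 arms the median distance of Ser2P was 267 to 521.5 bp and that of Ser5P 189.5 to 279.5 bp, with Ser2P the farther on each arm. Measured to the edge of the mark instead, with 0 for a midpoint inside it, Ser2P was the farther in 33.3% and the nearer in 17.5%, and the other distances were equal.

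The difference in distance was small in overlapping pairs and large in separated ones. It cannot exceed the offset of a pair, a median of 65 bp in overlapping and 2084 bp in separated pairs. The split thus limits its size by construction, but not which form is the farther. In overlapping pairs Ser2P lay a median of 268 bp and Ser5P 233.5 bp from H3K4me3, and Ser2P was the farther in 59.2% of 1305. In separated pairs the medians were 827.5 bp for Ser2P and 249 bp for Ser5P, and Ser2P was the farther in 64.5% of 863. Ser5P thus lay about as close to H3K4me3 whether or not its Ser2P partner overlapped it, while the distance of Ser2P varied.

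In separated pairs this share depended on which H3K4me3 peak was taken. With 1 H3K4me3 peak per pair, the one nearest to the point halfway between the forms, Ser2P was the farther in 60.2% of separated pairs (56.9 to 63.5). With the H3K4me3 peak nearest to Ser5P it was 81.7%, and with the one nearest to Ser2P it was 40.1% (36.8 to 43.6), below 50%. In overlapping pairs the same 3 choices gave 59.3, 60.3 and 58.6%. The halfway choice and each form's own nearest peak treat the forms alike, and only those are used for the results on order.

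The side on which the forms lay was counted with the H3K4me3 peak nearest to the halfway point. Any H3K4me3 midpoint between the forms is nearer to that point than one outside them. This choice therefore favours H3K4me3 between the forms, more so at large offsets. In overlapping pairs 48.8% had H3K4me3, Ser5P and Ser2P in that order going outward, 32.2% had H3K4me3, Ser2P and Ser5P, and 18.6% had the H3K4me3 midpoint between the forms. In separated pairs the H3K4me3 midpoint lay between the forms in 584 of 860 (67.9%, 64.7 to 71.0), and Ser5P was the nearer of the 2 in 59.4% of those. A further 19.9% had Ser5P then Ser2P on 1 side, and 12.2% had Ser2P then Ser5P. Those 584 pairs were 55.5% of all 1052 separated pairs, including those with no H3K4me3 midpoint near enough to count. Of the 1052, 29.9% had an H3K36me3 midpoint between the partners, 21.3% had both marks and 35.8% neither.

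The second question was which form lay nearer to the mark of gene bodies. Both forms had an H3K36me3 midpoint within 5 kb in 1795 pairs (67.1%). Ser2P lay a median of 425 bp from it (interval 361.5 to 491), against 1150.5 bp for Ser5P (1079 to 1223.5). Ser2P was the nearer in 1214 pairs, or 67.6% (65.4 to 69.8). Measured to the edge of the mark, Ser2P was the nearer in 42.7% and the farther in 17.1%. By midpoints the share was 77.4% on X (72.3 to 82.0) and 63.6 to 66.9% on the autosomal arms.

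The difference in distance to H3K36me3 is likewise limited by the offset of a pair. The separated pairs, with the larger offsets, carried most of it. In them Ser2P lay a median of 359.5 bp from H3K36me3 and Ser5P 1675 bp, and Ser2P was the nearer in 79.5% of 703 (76.3 to 82.4). In overlapping pairs the medians were 482 bp for Ser2P and 536 bp for Ser5P, and Ser2P was the nearer in 60.0% of 1092. By class of offset the share was 62.8% up to 200 bp, 49.5% at 200 to 500 bp (42.4 to 56.6) and 59.0% at 500 to 1000 bp. From 1000 bp upward it was 78.1, 83.2, 86.1 and 83.1% in successive classes of 1000 bp. The share with Ser2P farther from H3K4me3 varied less, from 56.2% at 500 to 1000 bp to 69.9% at 3000 to 4000 bp. Just outside the limit, at 5 to 6 kb, the share nearer to H3K36me3 was 89.6% of 48 and the share farther from H3K4me3 69.4% of 62, against 83.1% of 71 and 69.2% of 91 just inside it, at 4 to 5 kb.

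**Figure D2:**
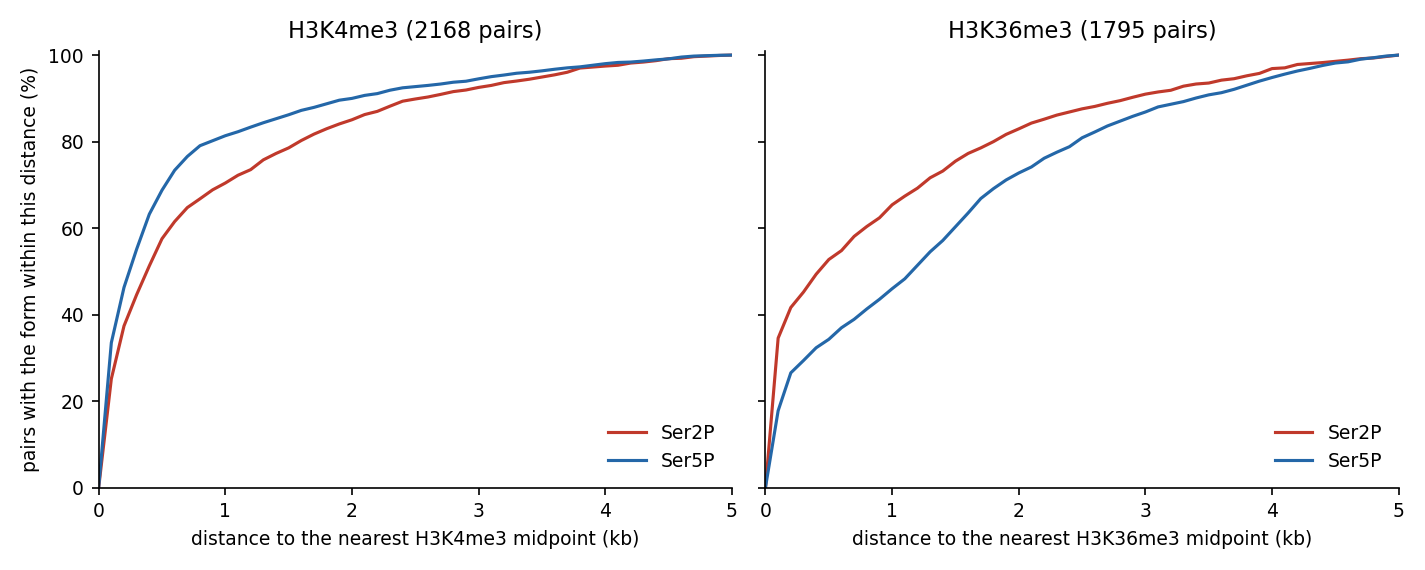
Cumulative share of pairs whose Ser2P midpoint or Ser5P midpoint lay within a given distance of the nearest H3K4me3 midpoint (left, 2168 pairs) or H3K36me3 midpoint (right, 1795 pairs). The Ser2P curve lies below the Ser5P curve over most of the range at H3K4me3, where the medians are 378 bp for Ser2P and 239 bp for Ser5P. It lies above it over most of the range at H3K36me3, where they are 425 and 1150.5 bp.

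Of 1695 pairs with both forms within 5 kb of both marks, 759 had Ser2P farther from H3K4me3 and also nearer to H3K36me3 (44.8%, 42.4 to 47.2; arms 42.1 to 49.7). The reverse, with Ser2P nearer to H3K4me3 and farther from H3K36me3, was found in 265 (15.6%, 13.9 to 17.5; arms 10.1 to 18.7). Ser2P was nearer to both marks in 396 (23.4%) and farther from both in 273 (16.1%). In separated pairs the combined arrangement held in 53.3% and its reverse in 8.48%, and in overlapping pairs in 39.2 and 20.3%. The combined arrangement was thus the most frequent of the 4 but held in a minority of pairs. Each of its parts alone held in most of these pairs, so it would lead even if the parts were not linked. Whether they went together more often than that was not tested.

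Distances to 2 marks do not give a direction, so each pair was also placed on an axis. It ran from the H3K4me3 midpoint to the H3K36me3 midpoint nearest to the point halfway between the forms, each within 5 kb of that point. Swapping the forms leaves the axis the same. It stands in for the direction of the gene, which was not known here, and its marks may belong to neighbouring genes. An axis was found for 1730 pairs (64.7%), using 1444 different H3K4me3 peaks and 1360 H3K36me3 peaks, with a median length of 1068 bp. It ran toward higher coordinates in 837.

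Ser5P preceded Ser2P on this axis in 1161 pairs, or 67.1% (64.8 to 69.3). The share was 75.3% on X (70.0 to 80.2) and 63.4 to 66.7% on the autosomal arms. Counted from the H3K4me3 midpoint, the median position was 209 bp toward H3K36me3 for Ser2P (interval 170 to 273.5) and 29.5 bp for Ser5P (19.5 to 46). The median difference, Ser2P minus Ser5P, was 62 bp (51.5 to 75.5) over all pairs, 28.2 bp in overlapping and 1586 bp in separated pairs. Apart from its sign, this difference is the offset of a pair, so its size comes with the split by overlap. Joined peaks gave 115.5 bp, pairing from the Ser2P side 148 bp and the 2 kb limit 39.5 bp. Ser5P came first in 72.6% of 708 separated pairs (69.2 to 75.9) and in 63.3% of 1022 overlapping pairs (60.3 to 66.3).

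Fewer Ser2P than Ser5P midpoints lay before the H3K4me3 midpoint. Of the 1730 pairs, Ser2P lay before the H3K4me3 midpoint in 23.9%, between the marks in 52.1% and beyond the H3K36me3 midpoint in 24.0%. Ser5P lay before H3K4me3 in 44.4% (42.0 to 46.8), between the marks in 43.8% and beyond H3K36me3 in 11.8%. In separated pairs 21.9% of Ser2P and 60.2% of Ser5P midpoints lay before H3K4me3, and in overlapping pairs 25.3 and 33.5%. On this axis most Ser5P midpoints thus lay before H3K4me3 in separated pairs and past it in overlapping ones. The axis takes the H3K4me3 midpoint nearest to the halfway point, which favours one between widely spaced forms. How far this contrast follows from that choice was not tested.

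In overlapping pairs the forms differed at the edge on the promoter side and hardly at the other edge. The Ser2P peak began farther along the axis than the Ser5P peak in 77.3% of them (74.6 to 79.8), by a median of 54 bp (48 to 62). At the edge toward H3K36me3, Ser2P reached farther in 48.2% (45.1 to 51.4), with a median difference of -4 bp (-9 to 4), so that the interval spans no difference. Within overlapping pairs, then, the shift of the Ser2P midpoint came with a Ser5P peak that extended farther on the H3K4me3 side. Ser5P was the wider in 73.3% of all overlapping pairs, so each edge difference mixes the midpoint shift with a difference in width. Those widths depend on how each list was called.

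Among the 12 orders that 4 midpoints can take with H3K4me3 before H3K36me3, a pair of orders led with 336 pairs each (19.4%). One was H3K4me3, Ser5P, Ser2P, H3K36me3, with both forms between the marks (arms 17.2 to 22.5%). In it 281 of the pairs overlapped and the median offset was 81.2 bp. The other was Ser5P, H3K4me3, Ser2P, H3K36me3, with 209 separated pairs and a median offset of 1227.5 bp (arms 16.6 to 24.7%). Next came Ser5P, H3K4me3, H3K36me3, Ser2P with 201 pairs, of which 177 were separated.

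Each order has a counterpart with the forms swapped, made up of other pairs on other axes. With both forms between the marks, 172 pairs had Ser2P ahead of Ser5P, against 336 with Ser5P ahead. With H3K4me3 between the forms and H3K36me3 last, 132 had Ser2P first and 336 Ser5P first. With both marks between the forms the numbers were 53 and 201. With H3K36me3 alone between them they were 57 and 120. Where both forms lay before H3K4me3 the counterparts were closer, at 104 with Ser2P first and 125 with Ser5P first, and where both lay beyond H3K36me3 they were 49 and 45. Ser5P led in 5 of the 6 counterparts.

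**Figure D3:**
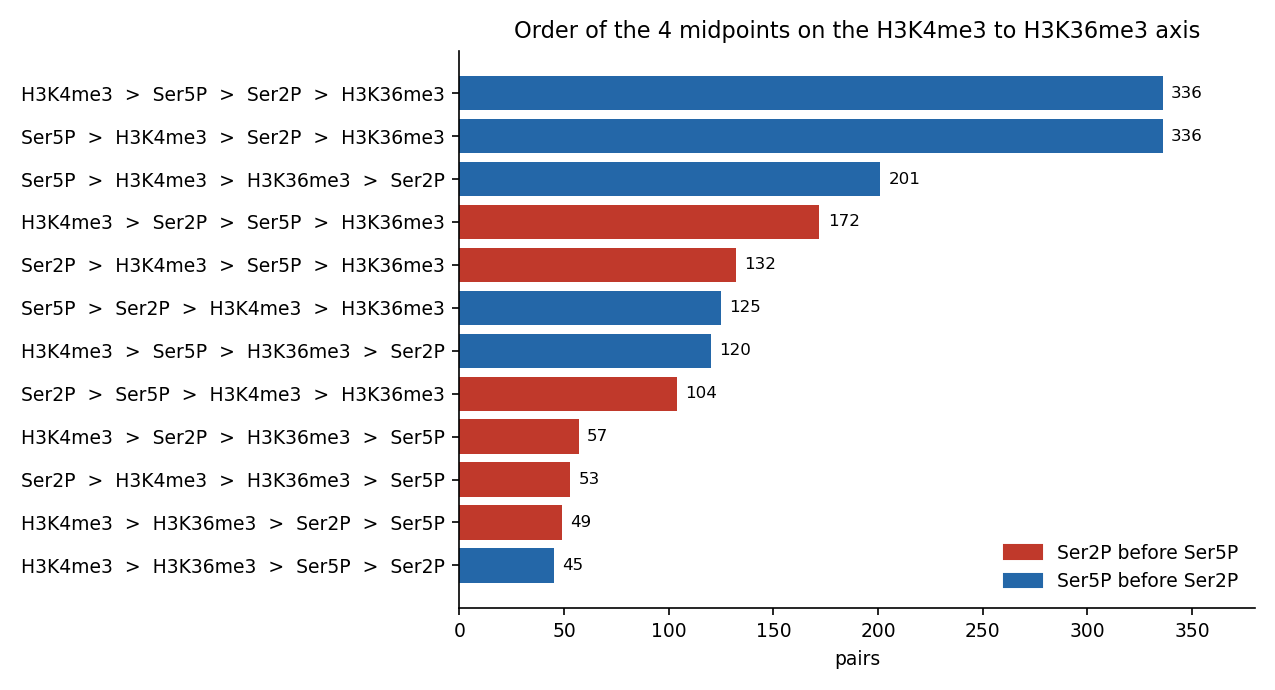
Number of pairs in each of the 12 orders of the H3K4me3, Ser2P, Ser5P and H3K36me3 midpoints, read along the axis from H3K4me3 to H3K36me3. Colour shows which form came first. The 3 most frequent orders, with 336, 336 and 201 pairs, all had Ser5P before Ser2P.

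Pairs in either direction also differed in Ser2P width. Ser2P peaks had a median width of 777 bp where Ser2P came first (interval 732 to 820) and 992 bp where Ser5P came first (953 to 1031). Ser5P widths were close in the same groups, at 888 and 879 bp. In separated pairs the Ser2P medians were 724.5 and 987 bp.

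The share with Ser5P first was higher on short axes, where the direction rests on a small distance between the mark midpoints and is least well defined. Axis lengths began at 0.5 bp, with a lower quartile of 321 bp. On axes of at least 1 kb the share was 64.1% of 900 (60.9 to 67.2), against 67.1% over all axes. By class of axis length it was 72.4% up to 500 bp (539 pairs), 66.7% at 500 to 1000 bp and 65.1% at 1000 to 2000 bp. It was 63.8% at 2000 to 3000 bp and 62.4% above that. H3K4me3 and H3K36me3 peaks overlapped each other on 912 axes, where the share was 70.9% (67.9 to 73.9), against 62.8% on the other 818 (59.4 to 66.2).

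The same picture was examined without pairing the forms. Around 4924 H3K4me3 peaks with an H3K36me3 midpoint within 5 kb, all Ser2P and Ser5P midpoints up to 5 kb away were placed with H3K36me3 on the positive side, a midpoint counting once for each such H3K4me3 peak. Of 7346 Ser2P placements 60.2% (59.0 to 61.3) fell on the H3K36me3 side, against 50.1% of 5058 Ser5P placements (48.7 to 51.5). The lists hold only 4828 Ser2P and 3732 Ser5P peaks. These intervals count placements, with some peaks placed more than once, and are therefore too narrow. The median position was 266 bp for Ser2P and 1.25 bp for Ser5P. Both were densest next to the H3K4me3 midpoint, where the first 250 bp toward H3K36me3 held 728 Ser2P and 636 Ser5P placements, and the 250 bp on the other side 310 and 543. Within 500 bp of it lay 19.1% of the Ser2P and 30.1% of the Ser5P placements. Beyond 1 kb, Ser2P had 3066 placements on the H3K36me3 side and 2389 on the other, a ratio of 1.28, whereas Ser5P had 1480 and 1602, a ratio of 0.924.

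**Figure D4:**
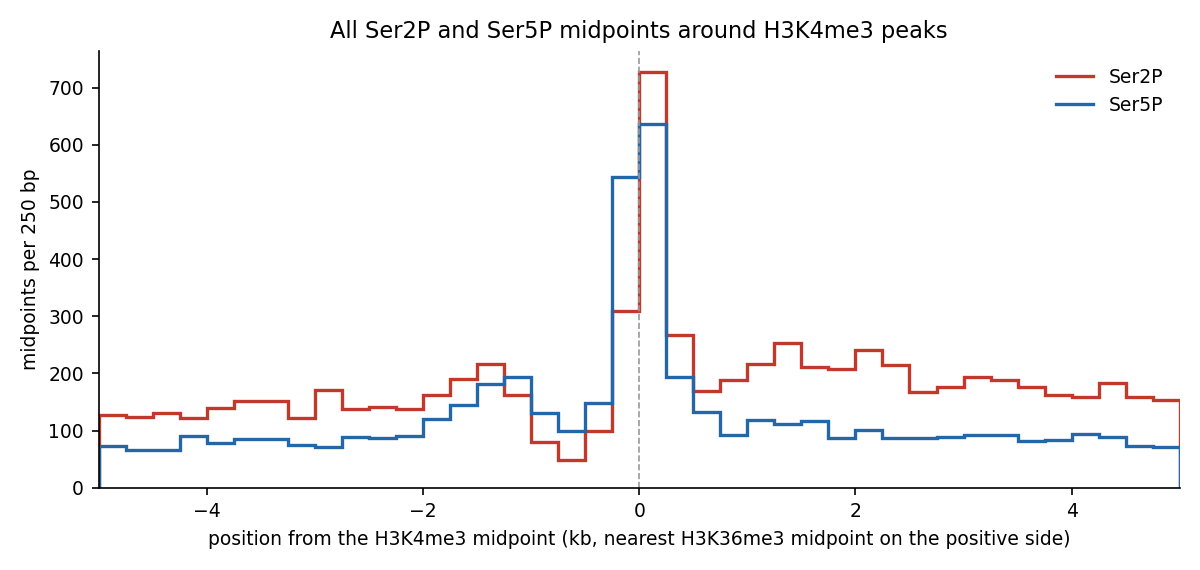
Number of Ser2P and Ser5P midpoints per 250 bp around 4924 H3K4me3 peaks, with the nearest H3K36me3 midpoint on the positive side. Both forms peak at the H3K4me3 midpoint, Ser5P on both sides of it (543 and 636) and Ser2P mainly on the H3K36me3 side (310 and 728), and beyond 1250 bp Ser2P is above Ser5P on both sides.

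Single regions illustrate both directions, taken by rule as the mutual nearest pair with the largest offset on each of 2L, 3L, 3R and X among those with both forms between the marks. With Ser5P first, the pair on 3L had Ser2P at chr3L:4248029-4251856 and Ser5P at chr3L:4253184-4254143, with midpoints 3721 bp apart. This Ser5P peak was centred 44.5 bp past the H3K4me3 midpoint. The axis ran toward lower coordinates here, and along it the Ser2P peak began at nearly the same point as the H3K36me3 peak (chr3L:4247151-4251864). The pair on X had Ser2P at chrX:12491276-12494486 and Ser5P at chrX:12487937-12489774, which were 4025.5 bp apart, with 1501 bp free between them. There Ser2P was centred 4039 bp and Ser5P 13.5 bp past the H3K4me3 midpoint, but another H3K36me3 midpoint lay 110 bp from that of Ser5P. On 2L, Ser2P at chr2L:9708932-9710338 lay 3945.5 bp from Ser5P at chr2L:9705291-9706088. On 3R, Ser2P at chr3R:7578613-7579783 lay 3621 bp from a Ser5P peak of only 83 bp at chr3R:7575536-7575618. Here too the neighbourhood held further marks, with another H3K4me3 midpoint 897.5 bp from Ser2P on 2L and another H3K36me3 midpoint 1948 bp from Ser5P on 3R. In all 4 the Ser5P midpoint was within 890 bp of the H3K4me3 midpoint and the Ser2P peak overlapped the H3K36me3 peak.

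The largest offsets with Ser2P first were smaller on 3 of the 4 arms, and there the pairs overlapped. Over all arms and before the choice of mutual pairs, this order held 172 pairs (11 separated), against 336 (55 separated) with Ser5P first. A larger group tends to hold larger extremes, so these maxima do not compare the directions. On 2L, Ser2P at chr2L:12428196-12429423 lay wholly inside Ser5P at chr2L:12428137-12430803, with midpoints 660.5 bp apart. On 3L, Ser2P at chr3L:8966666-8967580 lay wholly inside Ser5P at chr3L:8965398-8967610 (619 bp). On X, Ser2P at chrX:524098-524715 lay wholly inside Ser5P at chrX:524011-525922 (560 bp). In these 3 the Ser2P peak covered the promoter end of a longer Ser5P peak. On 3R the forms were apart, Ser2P at chr3R:2202128-2203000 and Ser5P at chr3R:2198389-2199394 (3672.5 bp), on an axis of 8110.5 bp, where the longest of all axes was 8817.5 bp. Other marks lay nearer there. Ser5P was 6549 bp from the H3K4me3 midpoint of the axis and 3594.5 bp from another one. Another H3K36me3 midpoint lay 2430.5 bp from Ser2P.

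**Figure D5:**
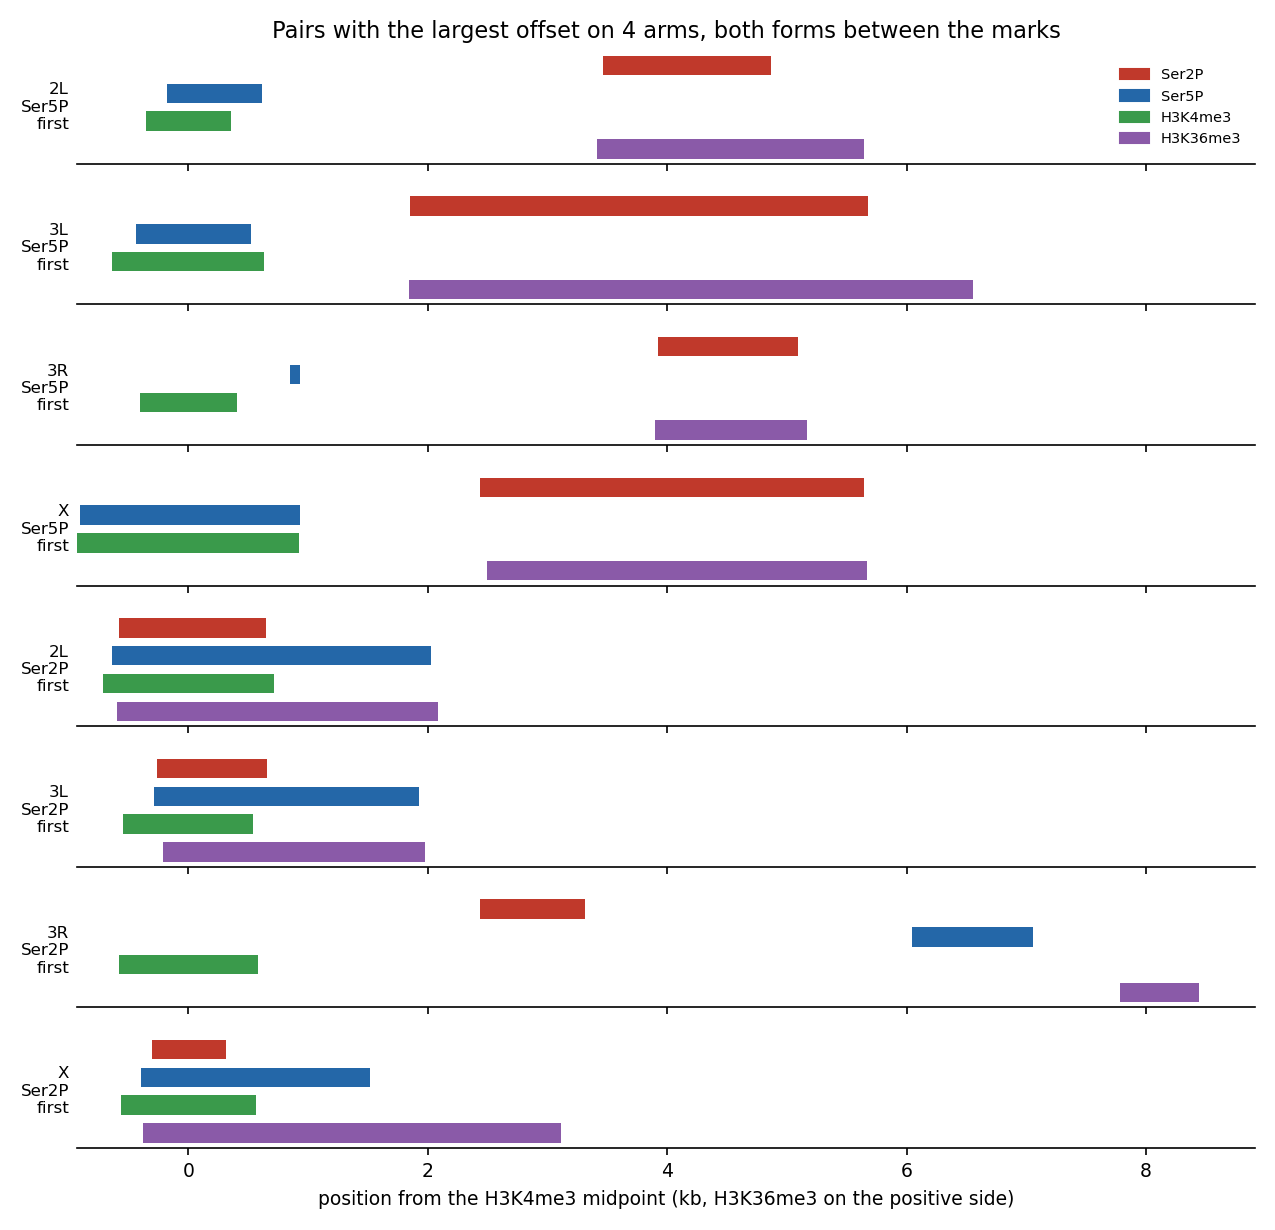
The 8 named pairs drawn to scale, each from its H3K4me3 midpoint with H3K36me3 on the positive side, with bars for the Ser2P, Ser5P, H3K4me3 and H3K36me3 peaks. In the upper 4 Ser2P sits at H3K36me3, with offsets of 3621 to 4025.5 bp, and Ser5P sits at H3K4me3 except on 3R, where it lies past the H3K4me3 peak, and in 3 of the lower 4 Ser2P lies inside the promoter end of the Ser5P peak.

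The pairs with the longest shared stretch on the same arms lay away from H3K4me3. On X, Ser2P at chrX:3745989-3750758 lay wholly inside Ser5P at chrX:3745498-3751254, sharing 4770 bp with midpoints 2.5 bp apart. On 3L, Ser2P at chr3L:8466975-8473776 and Ser5P at chr3L:8466115-8471620 shared 4646 bp. On 2L, Ser2P at chr2L:11436325-11440307 and Ser5P at chr2L:11436451-11440235 shared 3785 bp, and on 3R, Ser2P at chr3R:10643416-10647115 and Ser5P at chr3R:10639898-10647106 shared 3691 bp. The nearest H3K4me3 midpoint was 6961 bp from Ser2P on 2L, 7743 bp on X, 26828 bp on 3L and 60136.5 bp on 3R, so none of these 4 had an axis. H3K36me3 was within 5 kb of the pairs on X and 3L and not of those on 2L and 3R.

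The Ser5P peaks with a Ser2P partner were compared last with the 1057 without one, whose nearest Ser2P midpoint was a median of 14280 bp away. An H3K4me3 midpoint lay within 5 kb of 81.6% of the Ser5P peaks with a partner (80.1 to 83.1; arms 78.7 to 83.9) and of 59.3% of those without (56.3 to 62.3; arms 49.0 to 69.4). For H3K36me3 the shares were 68.4% (66.6 to 70.2) and 33.5% (30.6 to 36.4), and the ranges over arms did not overlap. The median width of the Ser5P peaks with a partner was 780 bp, and that of the others 545 bp. Width thus moved with having a partner, and its part in these differences was not tested.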

How the data were processed

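The authors deposited 1 peak list per antibody library, with chromosome, start and end of each peak and no score. Per the submitters' processing notes the build is dm3. Aligner, caller, calling threshold and any role of the input were not given in the sources used here. The deposited lists have BED columns and no header lines, and 1 was added to each start for printing. The lists labelled Pol2Ser2P, Pol2Ser5P, H3K4me3 and H3K36me3 were used as deposited, including 2 H3K4me3 entries and 1 H3K36me3 entry of 0 bp. The ASH2 and H3K27me3 lists and the input library were not analysed here.

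Midpoints, nearest partners, overlaps of at least 1 bp and axis positions were computed in Python 3.11.15 with numpy 2.4.6, pandas 2.3.3 and scipy 1.17.1, and drawn with matplotlib 3.10.9. No p-value was computed, since 1 library per target leaves no replicates. A caller's threshold decides how a broad region is broken into peaks and thereby moves midpoints, counts and widths. Named pairs followed a rule of the largest offset or longest shared stretch on each of 2L, 3L, 3R and X. The pairs, measures and rules were chosen with earlier results of these data known, so they are descriptions. Alternatives covered distance limits, mutual pairs, wider peaks, joined peaks, the choice of the mark peak and distances to peak edges. Those using the first 50% of each chromosome's entries or pairing from the Ser2P side were added after seeing the data.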

Additional observations from a re-analysis of the deposited data

How the results depend on the processing

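The 8 summary values were each recomputed under the alternative settings that bear on them, which gave 94 recomputed values. Most settings were shared by several summary values, so these are not 94 separate analyses. In every setting that gave the share, Ser2P was farther from H3K4me3, nearer to H3K36me3 and later on the axis in more pairs than the other way round. With the mark peak nearest to Ser2P this was barely so for H3K4me3, at 51.4% farther (49.3 to 53.6) and 48.4% nearer. The exception was a combination of choices, separated pairs with the H3K4me3 peak nearest to Ser2P, at 40.1% farther. Of the 94 recomputed values, 31 stayed within the 95% interval of the main value and 63 left it. The cause was not tested unless the construction of the alternative shows it. No paired analysis was possible because each target had 1 library. Depth is unknown, so peaks lost to a caller's threshold cannot be counted.

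Taking the 2 kb limit for pairs, 57.2% of Ser5P peaks had a partner, the median offset was 117 bp, 76.1% overlapped, 63.7% had Ser2P nearer to H3K36me3, 41.1% had the combined arrangement, 64.5% had Ser5P first and the signed offset was 39.5 bp. At 10 kb, 81.2% had a partner, the offset was 519 bp and 53.6% overlapped. Mutual nearest pairs gave an offset of 111 bp, 76.4% overlapping, 63.9% with Ser2P farther from H3K4me3 and a signed offset of 47 bp.

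The wider 50% of the lists gave 61.8% with a partner, 64.0% overlapping, 66.9% farther from H3K4me3, 52.4% combined, 72.9% Ser5P first and a signed offset of 92.8 bp. Joined peaks gave 69.2% with a partner, an offset of 441 bp, 64.4% overlapping, 64.9% farther from H3K4me3 and a signed offset of 115.5 bp.

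Separated pairs alone gave 64.5% farther from H3K4me3, 79.5% nearer to H3K36me3, 53.3% combined, 72.6% Ser5P first and a signed offset of 1586 bp. Overlapping pairs alone gave 59.2%, 60.0%, 39.2%, 63.3% and 28.2 bp for the same values. Offsets of at least 200 bp gave 64.1% farther from H3K4me3, 71.5% nearer to H3K36me3, 48.9% combined and 69.5% Ser5P first.

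The mark peak nearest to Ser5P gave 68.8% farther from H3K4me3 and 59.2% nearer to H3K36me3. The one nearest to Ser2P gave 51.4%, 72.0% and 36.6% combined, and the one nearest to the halfway point 40.5% combined. These choices shorten the distance of the form they start from. Distances to the edge of the mark gave 33.3% farther from H3K4me3, 42.7% nearer to H3K36me3 and 16.8% combined, with 17.5, 17.1 and 2.61% the other way, since midpoints inside a mark are all at 0.

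Marks within 2 kb gave 70.9% Ser5P first, and marks within 10 kb gave 41.9% combined and a signed offset of 51.2 bp. Axes of at least 1 kb gave 64.1% Ser5P first and a signed offset of 82.5 bp.

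Chosen after seeing the data, the first 50% of each chromosome's entries gave 54.1% with a partner, an offset of 188 bp, 68.7% overlapping and 70.0% nearer to H3K36me3. Pairing from the Ser2P side gave an offset of 613 bp, 54.0% overlapping, 69.4% farther from H3K4me3, 63.3% nearer to H3K36me3, 69.7% Ser5P first and a signed offset of 148 bp.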
